A study of Mus musculus with 12 samples.

Results

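The 6 genes described here encode the surrogate light chain and the CD79 signalling chains of the B lineage: Vpreb1, Vpreb2, Igll1, Vpreb3, Cd79a and Cd79b. They were taken by gene name from the array annotation, which gave 7 probes for the 6 genes among 39429 probes under 31541 names. All 6 genes passed the filter on dim probes, which kept 18556 genes.

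RNA came from bone marrow cells sorted from female C57BL/6 mice, 16 weeks old, whose Cebpa enhancer and promoter transgene drives human CD4 (hCD4) as a reporter. Every group therefore comes from reporter animals, and Cebpa itself encodes a transcription factor of myeloid progenitors. The groups were hCD4+ granulocyte-monocyte progenitors (GMP), hCD4- and hCD4+ pre-pro-B cells, hCD4- and hCD4+ pro-B cells, and pre-B cells whose hCD4 status the labels do not give. Each of the 6 groups had 2 arrays, from amplified, Cy3-labelled RNA on one-colour mouse arrays. The series title speaks of 2 mice, and the labels do not say which array came from which mouse, so p-values here measure the spread between these arrays, which may be technical.

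A developing B cell first makes an immunoglobulin heavy chain. Before any light chain exists, the heavy chain pairs with a surrogate light chain made of a VpreB protein (from Vpreb1 or Vpreb2) and lambda5 (from Igll1), and the complex is the pre-B cell receptor. Cd79a and Cd79b encode Ig-alpha and Ig-beta, which carry the signalling motifs of both the pre-B receptor and the later B cell receptor. Vpreb3 encodes a related protein of the B lineage that binds newly made antibody chains inside the cell. In mouse marrow the surrogate light chain genes are known as genes of the pro-B and large pre-B stages, and the transcription factors EBF1, E2A (from Tcf3) and PAX5 are known activators of several of these genes.

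The probe sequences are shown first because they set what each value can measure. The capitals mark a stop codon at the end of the Vpreb2 probe and a polyadenylation signal AATAAA in the Vpreb3 probe and one Cd79a probe. Whole probes of 60 bases are given for Vpreb2, Igll1 and the second Cd79a probe, and 30 bases of the others.
Vpreb1 probe: aggggtagaacgtgaggttttgcagagcct
Vpreb2 probe: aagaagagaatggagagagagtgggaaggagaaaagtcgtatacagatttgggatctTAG
Igll1 probe: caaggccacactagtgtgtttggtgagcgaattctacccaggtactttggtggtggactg
Vpreb3 probe: ctgtgtaaacaAATAAAtaaaataaatgtc
Cd79a brighter probe: cacttaagtgatAATAAAtccttcccaaag
Cd79a dimmer probe: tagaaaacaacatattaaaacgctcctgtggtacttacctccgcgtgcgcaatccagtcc
Cd79b probe: agagacttgttggaatctgcaaatggactc

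In the array annotation, on build mm9, the Vpreb1 probe lies at chr16:16868559-16868618 and the Igll1 probe at chr16:16861104-16861163, both on the minus strand. The Vpreb2 probe lies at chr16:17981114-17981173 on the plus strand. Its annotation lists a Vpreb1 transcript beside the Vpreb2 transcript, so its signal may hold RNA of both genes. The Vpreb1 and Vpreb2 probes themselves share no run of over 6 bases, and over all 21 pairs of the 7 probes the longest shared run was 5 to 9 bases. The Vpreb3 probe lies at chr10:75412326-75412385 (plus strand) and the Cd79b probe at chr11:106172780-106172839 (minus strand). The brighter Cd79a probe lies at chr7:25686823-25686882 and the dimmer one spans chr7:25684357-25684614, both on the plus strand, the latter with its 60 bases spread over 258 bases of genome. In RefSeq order on GRCm38.p6, counting protein-coding genes, Igll1 and Vpreb1 are direct neighbours on chromosome 16, while Vpreb2 lies elsewhere on that chromosome between Slc25a1 and Dgcr6.

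Windows of 250 bases before the annotated start were given by RefSeq (GRCm38.p6) for 5 of the 6 genes, all but Cd79b. They are shown because the same factors are known to act on several of these genes and because the genes moved together. Capitals mark matches, on either strand, to the relaxed EBF motif CNCNNGGG, to the E2A-type E-box CAGGTG and to the octamer ATGCAAAT. The Vpreb1 window is chr16:16869256-16869505 (minus strand), that of Igll1 is chr16:16863986-16864235 (minus strand), that of Vpreb3 is chr10:75948050-75948299 (plus strand) and that of Cd79a is chr7:24897247-24897496 (plus strand).
Vpreb1 window: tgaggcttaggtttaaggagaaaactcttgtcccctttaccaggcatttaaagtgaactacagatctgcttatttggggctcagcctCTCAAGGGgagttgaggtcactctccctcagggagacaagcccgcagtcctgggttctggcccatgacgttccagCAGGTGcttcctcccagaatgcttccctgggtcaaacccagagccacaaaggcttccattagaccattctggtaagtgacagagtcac
Igll1 window: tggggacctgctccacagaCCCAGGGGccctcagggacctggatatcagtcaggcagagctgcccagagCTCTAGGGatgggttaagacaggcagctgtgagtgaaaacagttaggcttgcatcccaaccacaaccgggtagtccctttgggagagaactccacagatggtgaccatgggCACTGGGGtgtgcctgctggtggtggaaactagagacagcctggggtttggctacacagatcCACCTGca
Vpreb3 window: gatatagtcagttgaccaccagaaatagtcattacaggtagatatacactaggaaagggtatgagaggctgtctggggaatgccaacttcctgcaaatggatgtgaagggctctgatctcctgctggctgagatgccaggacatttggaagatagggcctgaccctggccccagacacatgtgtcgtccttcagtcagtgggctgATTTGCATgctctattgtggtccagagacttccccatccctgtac
Cd79a window: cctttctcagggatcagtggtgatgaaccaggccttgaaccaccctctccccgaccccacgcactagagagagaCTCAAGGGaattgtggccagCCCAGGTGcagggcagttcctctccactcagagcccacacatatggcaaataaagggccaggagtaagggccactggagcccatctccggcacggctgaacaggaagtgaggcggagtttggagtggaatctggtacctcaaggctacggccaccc

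The letters CTCAAGGG stand in both the Vpreb1 window (positions -163 to -156 from the start) and the Cd79a window (-176 to -169). The relaxed EBF motif matched 4 of the 5 windows, with 3 matches in Igll1 and none in Vpreb3, and it matched 45.9% of all 32851 windows searched. Its strict form CCCNNGGG, found in 11.8% of all windows, matched only the Igll1 window, at -231. CAGGTG was present in 4 of the 5 windows against 17.2% of all windows. It lay at -88 in Vpreb1, -232 in Vpreb2, -8 in Igll1 and -154 in Cd79a, and in Cd79a it overlapped the second relaxed EBF match. The octamer, in 1.6% of all windows, matched only Vpreb3, at -45. Of the other motifs searched on both strands, CANNTG (66.2% of all windows) and GGAA (93.4%) matched all 5 windows. The Runx motif TGTGGT (14.0%) matched Igll1 and Vpreb3, and the Ikaros motif TGGGAA (21.6%) matched only Vpreb2. CANNTG includes every CAGGTG match, and TGGGAA includes GGAA. A match describes letters and does not show binding.

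For a comparison of pairs, longer sequences were used, which hold these windows and run on past the annotated start. Those of Vpreb1 and Vpreb2 overlapped by 156 bases when one was shifted by 144, with 153 bases the same (98.1%). Within that overlap their CAGGTG matches fall on the same place, since -88 and -232 differ by the shift. Every other pair of these longer sequences reached 34.4% to 38.3% in its best ungapped overlap of at least 100 bases.

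**Figure D1:**
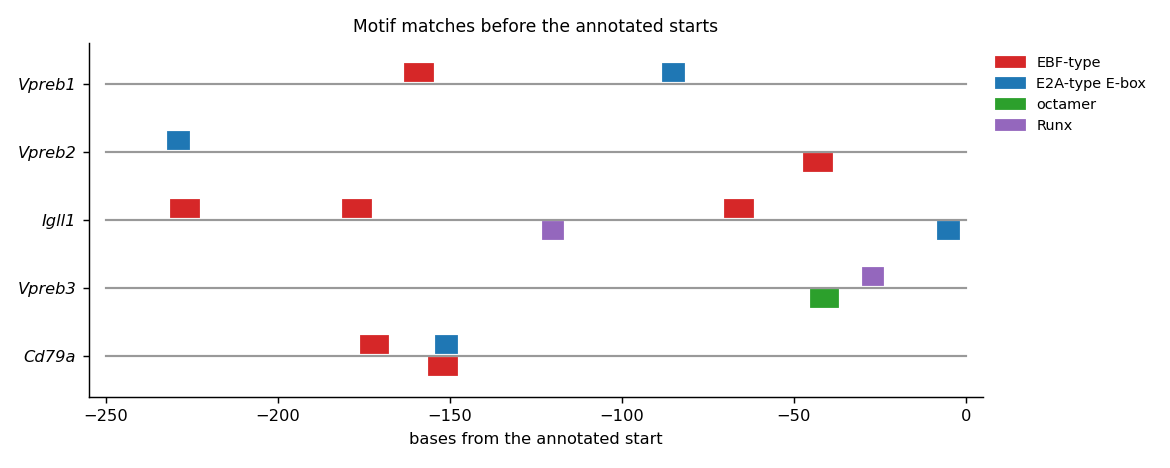
Motif matches in the 250 bases before the annotated start of 5 genes, with the distance from the start on the horizontal axis, matches on the plus strand above each line and on the minus strand below it. Red boxes are the relaxed EBF motif, blue the E2A-type E-box, green the octamer and purple the Runx motif, and 4 of the 5 genes have both a red and a blue box.

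A level is the log2 of the array's processed signal minus the log2 of that array's 75th percentile, so 0 is the brightness of that percentile. Levels of different probes cannot be set against each other. The 75th percentile signal ran from 246 to 946, lowest on the hCD4- pre-pro-B arrays (358 and 246), and 50.6% to 56.7% of probes were well above background. Replicates correlated at 0.982 to 0.992 over kept genes. Over kept genes the 2 hCD4- pre-pro-B arrays had a median SD of 0.221, against 0.0977 to 0.152 for the other groups. Each slide held 2 groups: GMP with hCD4- pre-pro-B, hCD4+ pre-pro-B with hCD4- pro-B, and hCD4+ pro-B with pre-B. For a comparison across slides, the slide and the group cannot be told apart, and in bulk RNA fewer cells of a type and less RNA per cell cannot be told apart.

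The labelled cell types were set against marker lists. The GMP arrays had all 9 GMP and primary granule markers above background. So did both hCD4+ pro-B arrays, and the hCD4+ pre-pro-B arrays had 8 to 9. The log2 of the summed level of these markers was 10.05 and 10.32 on the GMP arrays, against 6.29 to 7.96 on all other arrays. Ebf1 and Pax5 were above background on no pre-pro-B array and no GMP array, and on all pro-B and pre-B arrays. On every pre-pro-B array all 4 kept classical dendritic markers and all 8 plasmacytoid dendritic markers were above background. This was not particular to those arrays, since the 8 plasmacytoid markers were also above background on every pro-B and pre-B array. The 4 classical dendritic markers were above background on both hCD4+ pro-B arrays, and 0 and 4 of them on the 2 pre-B arrays. The log2 of the summed level was 9.53 to 10.04 on pre-pro-B arrays against 6.86 to 7.68 on pro-B and pre-B arrays for the plasmacytoid markers, and 6.25 to 6.27 against -3.82 to 2.31 for the classical dendritic markers. All 5 kept pre-B markers were above background on the pro-B and pre-B arrays, and the log2 of their summed level was highest on the pre-B arrays (6.62 and 6.74, against 5.0 and 5.01 in hCD4- pro-B and 3.70 and 3.81 in hCD4+ pro-B).

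All 6 genes were far higher on the pro-B and pre-B arrays than on the GMP and pre-pro-B arrays. Among the pro-B and pre-B arrays they split: Vpreb1, Vpreb2 and Igll1 were highest in pro-B and lower in pre-B cells, Cd79b was highest in pre-B cells, and Vpreb3 and Cd79a did not pass the test between these groups.

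Vpreb1, one of the 2 VpreB genes, lay at 8.16 and 8.08 on the hCD4- pro-B arrays, 7.63 and 7.76 on the hCD4+ pro-B arrays and 6.43 and 6.32 on the pre-B arrays. On the other arrays it lay at -0.90 and -0.97 in GMP, -1.29 and -0.79 in hCD4- pre-pro-B and -0.83 and -0.26 in hCD4+ pre-pro-B, well above background on all 12 arrays. The 3 later groups do not overlap one another, and the earlier groups lie far below them. In order of mean level, the step from hCD4+ pro-B to pre-B (a difference of 1.32) and the step from pre-B to hCD4+ pre-pro-B (6.92) passed the test in limma. The 2 pro-B groups (0.42), hCD4+ pre-pro-B and GMP (0.39) and GMP and hCD4- pre-pro-B (0.11) did not.

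Vpreb2, the second VpreB gene, lay at 5.41 and 5.63 in hCD4- pro-B, 4.98 and 5.03 in hCD4+ pro-B and 3.32 and 3.36 in pre-B arrays. It lay at -4.22 and -3.04 in hCD4- pre-pro-B, -4.04 and -3.45 in hCD4+ pre-pro-B and -4.00 and -4.51 in GMP arrays. The order of the 3 later groups is the same as for Vpreb1. The signal was well above background on 1 of 2 GMP arrays, 1 of 2 hCD4- pre-pro-B arrays and both hCD4+ pre-pro-B arrays, and those 3 groups overlap.

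Igll1, which encodes lambda5, lay at 5.42 and 5.65 in hCD4- pro-B, 5.12 and 4.93 in hCD4+ pro-B and 3.21 and 3.21 in pre-B arrays. It lay at -6.60 and -6.11 in hCD4- pre-pro-B, -4.83 and -3.89 in hCD4+ pre-pro-B and -4.54 and -4.56 in GMP arrays. Only 1 of the 2 GMP arrays, 1 of the 2 hCD4+ pre-pro-B arrays and none of the hCD4- pre-pro-B arrays were well above background. The 3 later groups do not overlap, again in the order hCD4- pro-B, hCD4+ pro-B, pre-B.

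Vpreb3 lay at 8.06 and 8.20 in pre-B, 7.97 and 7.97 in hCD4- pro-B and 7.26 and 7.20 in hCD4+ pro-B arrays. The levels were -3.08 and -1.41 in hCD4- pre-pro-B and -3.14 and -1.27 in hCD4+ pre-pro-B arrays, well above background on all 4, and at -4.95 and -5.17 in GMP arrays, on neither of which it was well above background. The replicates of both pre-pro-B groups lie far apart (SD 1.18 in hCD4- and 1.33 in hCD4+, n = 2), and each pair holds 1 low and 1 high array. The low array is replicate 1 in both groups, as it is for Vpreb1, Vpreb2, Igll1 and the brighter Cd79a probe. It is replicate 2 for the dimmer Cd79a probe in hCD4+ cells and for Cd79b in hCD4- cells (4.21 on replicate 1 and 4.02 on replicate 2). The spread of the pre-pro-B replicates gives Vpreb3 the largest standard error of the 6 genes, 0.63 on the log2 scale. The highest 3 groups follow the order pre-B, hCD4- pro-B, hCD4+ pro-B without overlap, but neither neighbouring step passed the test (0.16, adjusted p = 0.858, and 0.74, adjusted p = 0.449, limma).

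Cd79a, which encodes Ig-alpha, lay on its brighter probe at 5.81 and 5.96 in pre-B, 5.59 and 5.67 in hCD4- pro-B and 5.34 and 4.98 in hCD4+ pro-B arrays. Its levels were -2.21 and -1.48 in hCD4- pre-pro-B, -2.82 and -2.17 in hCD4+ pre-pro-B and -4.25 and -4.05 in GMP arrays, well above background on all 12. The dimmer probe lay at 2.02 and 2.22 in pre-B, 1.67 and 1.63 in hCD4- pro-B and 1.63 and 1.09 in hCD4+ pro-B arrays, and of the 6 earlier arrays it was well above background on 1 alone, hCD4- pre-pro-B replicate 2. Both probes separate the 3 later groups from the 3 earlier ones without overlap. Only the brighter one also separates GMP from both pre-pro-B groups.

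Cd79b, which encodes Ig-beta, lay at 7.79 and 7.90 in pre-B, 6.97 and 6.93 in hCD4- pro-B and 6.41 and 6.29 in hCD4+ pro-B arrays. Lower levels were found earlier, 4.21 and 4.02 in hCD4- pre-pro-B, 3.64 and 3.78 in hCD4+ pre-pro-B and 3.0 and 3.17 in GMP arrays. No 2 groups overlap, and every array was well above background, GMP included. Of the 5 steps in its order, 4 passed the test. The exception is the step between the 2 pre-pro-B groups, 0.40 with an adjusted p of 0.0581 in limma.

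**Figure D2:**
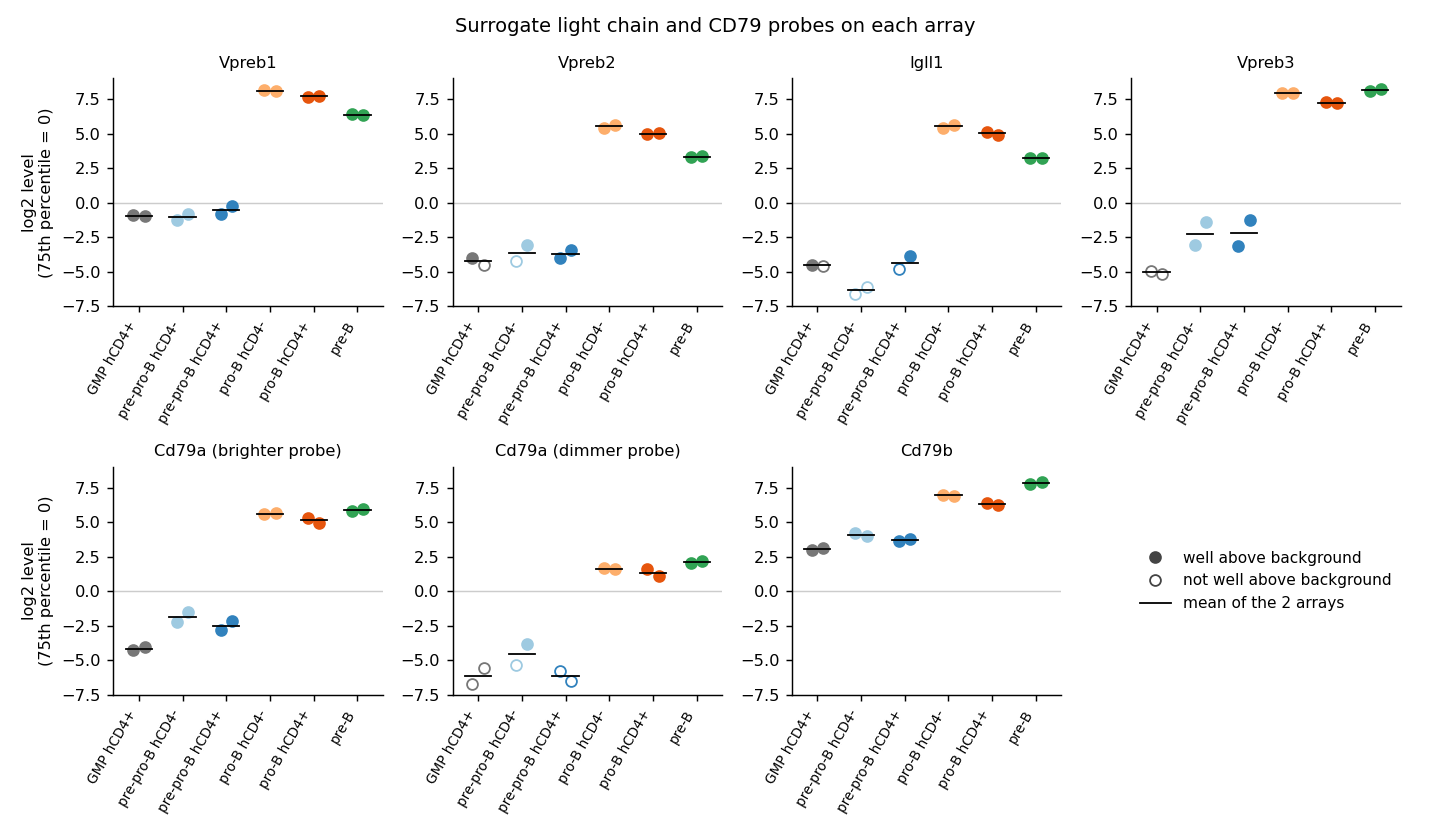
Log2 level of each of the 7 probes on each of the 12 arrays, relative to the 75th percentile of the array, with filled points well above background, open points not, and lines at the mean of the 2 arrays. Every probe is higher on all pro-B and pre-B arrays than on any GMP or pre-pro-B array, and Vpreb1, Vpreb2 and Igll1 step down from pro-B to pre-B while Cd79b steps up.

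From hCD4- pre-pro-B to hCD4- pro-B cells all 6 genes rose, in a comparison in which 59.7% of all genes were called and 32.7% rose. The members' median change was 9.15 on the log2 scale, against 0.02 over all genes tested. Igll1 was at least 843-fold higher in pro-B cells (adjusted p = 8.49e-08, limma), where "at least" sets the dimmer group at the dimmest signal still well above background. Every such bound in this report was taken on this scaling alone, and under another scaling the change can be smaller than the bound. Vpreb1 rose by 9.16 (SE 0.21, adjusted p = 8.49e-08), Vpreb2 by 9.15 (SE 0.37, adjusted p = 3.29e-07) and Vpreb3 by 10.22 (SE 0.63, adjusted p = 3.03e-06). In linear terms those are 572-fold, 568-fold and 1190-fold differences. Of the signalling chains, Cd79a rose by 7.48 (SE 0.28), or 178-fold, and by 6.22 (SE 0.54) on its dimmer probe. Cd79b rose by 2.83 (SE 0.12), or 7.12-fold, from a level already well above background.

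Among hCD4+ cells all 6 genes also rose from pre-pro-B to pro-B, where 54.2% of all genes were called and 33.1% rose. Vpreb3 rose by 9.44, Igll1 by 9.38, Vpreb2 by 8.75, Vpreb1 by 8.24, Cd79a by 7.65 and Cd79b by 2.63. The form of this step that lies within 1 slide takes hCD4- pro-B and hCD4+ pre-pro-B arrays. All 6 genes rose there too (47.8% of all genes called, 29.2% higher), by 10.18 for Vpreb3, 9.90 for Igll1, 9.26 for Vpreb2, 8.67 for Vpreb1, 8.12 for Cd79a and 3.24 for Cd79b. In each form Cd79b had the smallest change of the 6. These 3 comparisons share arrays and are not independent. Markers of other cells moved as well: from hCD4- pre-pro-B to hCD4- pro-B all 4 kept classical dendritic and all 8 plasmacytoid markers fell, while 5 of 6 late neutrophil and 4 of 5 kept erythroid markers rose. The part of these cells in the rises was not tested.

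The sizes of the rises differed between settings that change several steps at once, and which step moved them was not tested. With normexp background correction and quantile normalization the rise of Igll1 among hCD4- cells was 8.35 and that of Vpreb2 7.65. In the authors' deposited table the Cd79a values gave 5.65. With either of these, and with each array left out in turn, all 6 genes still rose in each of the 3 comparisons.

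**Figure D3:**
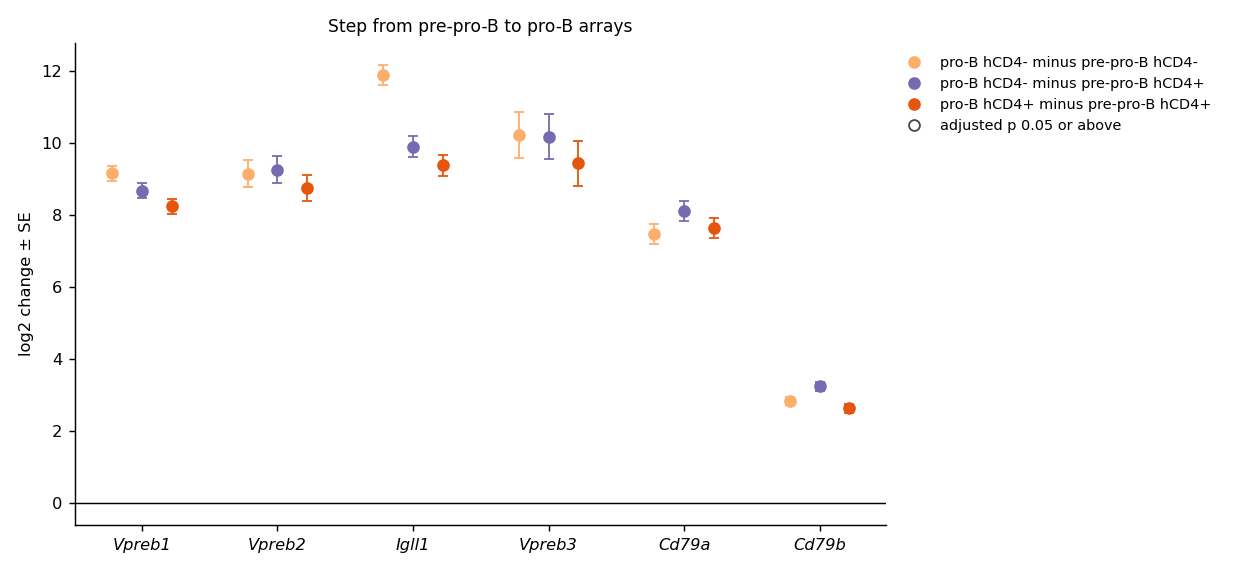
Log2 change from pre-pro-B to pro-B arrays for each gene in 3 comparisons, with standard errors from the model of 12 arrays; filled points have an adjusted p under 0.05. All 18 points are filled, and Cd79b lies lowest, between 2.63 and 3.24.

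From pro-B to pre-B cells the surrogate light chain genes fell and Cd79b rose. Against hCD4- pro-B arrays 3 of the 6 genes fell and 1 rose, where 41.1% of all genes were called, 21.4% lower and 19.7% higher. Igll1 fell by 2.33 on the log2 scale (SE 0.29, adjusted p = 0.000604, limma), a 5.02-fold difference. Vpreb2 fell by 2.18 (SE 0.37, adjusted p = 0.00247), or 4.53-fold, and Vpreb1 by 1.75 (SE 0.21, adjusted p = 0.000581), or 3.35-fold. Cd79b rose by 0.89 (SE 0.12, adjusted p = 0.000977), or 1.86-fold. Cd79a (0.25, SE 0.28) and Vpreb3 (0.16, SE 0.63) did not pass the test, and with an SE of 0.63 a change of Vpreb3 of the size seen for Cd79b would not be resolved.

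Against hCD4+ pro-B arrays, which share a slide with the pre-B arrays, the same 3 genes fell and Cd79b rose, where 42.9% of all genes were called, 24.0% lower and 18.8% higher. Igll1 fell by 1.81 (adjusted p = 0.00136, limma), Vpreb2 by 1.66 (adjusted p = 0.00711) and Vpreb1 by 1.32 (adjusted p = 0.00151). Cd79b rose by 1.5 (adjusted p = 4.31e-05), or 2.82-fold. Cd79a (0.72, adjusted p = 0.0701) and Vpreb3 (0.90, adjusted p = 0.293) were higher on both pre-B arrays than on both hCD4+ pro-B arrays without passing the test. Cd79a passed it in 9 of 27 alternatives and Vpreb3 in 3 of 26. Of the 9 GMP markers 8 were lower in pre-B than in hCD4+ pro-B cells, as were all 4 kept classical dendritic markers (median -4.03), 5 of 8 plasmacytoid markers (with 1 higher), all 3 kept natural killer markers, 3 of 5 kept T cell markers (with 1 higher) and 2 of 5 kept erythroid markers. Of the 7 kept mature B and plasma cell markers 3 were higher, and no late neutrophil marker was called. Against hCD4- pro-B cells 5 of 6 late neutrophil markers fell. The part of these cells was not tested. Even after the fall, the surrogate light chain genes stayed far above the earlier stages: pre-B arrays exceeded hCD4+ pre-pro-B arrays 121-fold for Vpreb1 and 136-fold for Vpreb2.

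**Figure D4:**
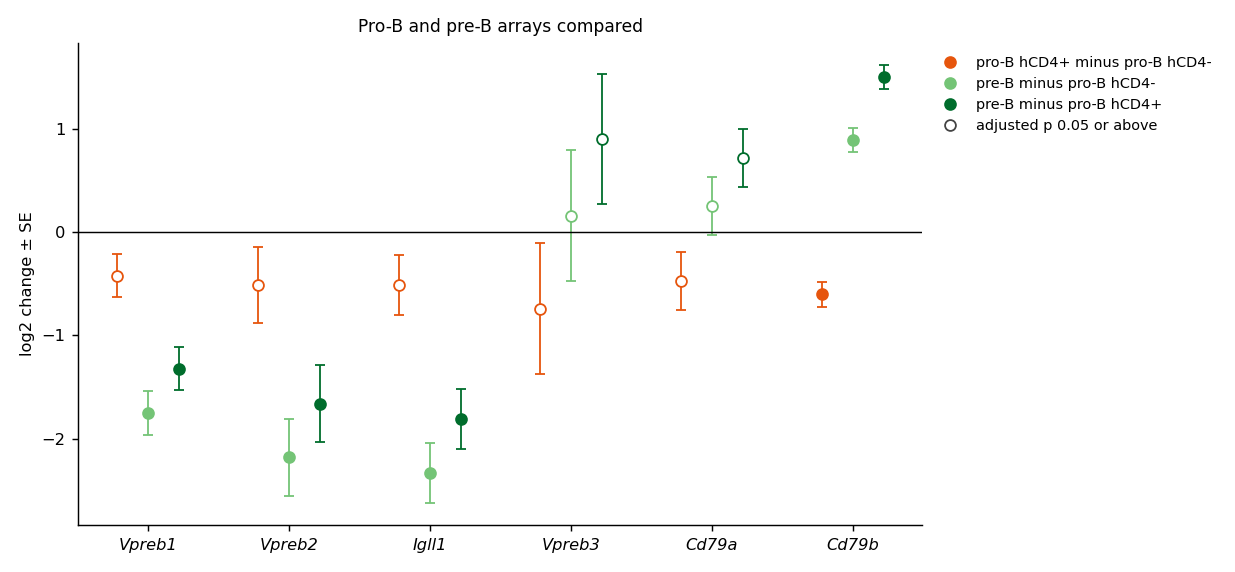
Log2 change of each gene between hCD4+ and hCD4- pro-B arrays and from either to pre-B arrays, with standard errors; filled points have an adjusted p under 0.05. The green points of Vpreb1, Vpreb2 and Igll1 lie between -2.33 and -1.32, those of Cd79b at 0.89 and 1.5, and all 6 orange points lie below 0 with only that of Cd79b filled.

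Between hCD4+ and hCD4- pro-B cells, the differences of the 6 genes ran from -0.74 to -0.42 on the log2 scale. Only Cd79b passed the test, where 20.5% of all genes were called and 8.86% were lower. It fell by 0.60 (SE 0.12, adjusted p = 0.0122, limma), a 1.52-fold difference. Leaving out hCD4- pro-B replicate 1 (adjusted p = 0.0693), hCD4- pro-B replicate 2 (0.0641) or hCD4+ pro-B replicate 2 (0.0698) ended that call, with values of -0.58, -0.63 and -0.54. The other differences were -0.42 for Vpreb1 (adjusted p = 0.204), -0.51 for Vpreb2 (0.362), -0.51 for Igll1 (0.247), -0.74 for Vpreb3 (0.449) and -0.47 for Cd79a (0.276). The dimmer Cd79a probe gave -0.29 (SE 0.54, adjusted p = 0.758, limma). It lay at 1.63 and 1.09 on the hCD4+ arrays against 1.67 and 1.63 on the hCD4- arrays. The members' median was -0.51 against 0.02 over all genes. With normexp and quantile normalization, and with the authors' deposited table, 4 of the 6 genes were called lower, which adds Vpreb1, Vpreb2 and Igll1. The 20.5% and 8.86% belong to the main fit, and the shares of all genes called with those settings are not given here. The 2 groups lie on different slides.

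Markers of other cells and stages moved with this comparison. Of the 5 kept pre-B markers 4 were lower in hCD4+ pro-B cells and 0 higher, with a median change of -1.31. Over the other scalings 4 to 5 were lower, and with 1 array left out the median ran from -1.53 to -1.09. Of the 9 GMP and primary granule markers 8 were higher in hCD4+ pro-B cells (Mpo, the neutrophil peroxidase, by 8.56), and the log2 of their summed level was 7.89 and 7.96 on the hCD4+ arrays against 6.65 and 6.68 on the hCD4- arrays. All 4 kept classical dendritic markers were higher too (sums of 2.08 to 2.31 against -2.43 to -1.31), as were 6 of 8 plasmacytoid markers (7.44 to 7.46 against 6.86 to 6.91). Without hCD4- pro-B replicate 2 or hCD4+ pro-B replicate 1 these counts were 2 classical dendritic and 2 plasmacytoid markers, and without hCD4+ pro-B replicate 2 they were 2 and 3. Of the 6 late neutrophil markers 5 were lower (sums of -0.66 to 0.17 against 3.82 to 4.68), and 3 without hCD4- pro-B replicate 1. Of the 7 kept mature B and plasma cell markers 2 were lower (sums of 3.02 to 3.08 against 3.72 to 3.99), and Igj, the joining chain of secreted antibody, was called lower (adjusted p = 0.000943, limma), with 1 of the 2 hCD4+ arrays above background. The count of 2 was 1 without any single pro-B array of either group. Among T cell markers 1 of 5 kept was higher and 1 lower, among natural killer markers 2 of 3 were higher and 1 lower, and no erythroid marker of 5 was called. Cebpa was above background on both hCD4+ pro-B arrays and on neither hCD4- pro-B array, and Csf3r was the one GMP marker that was not called. The part of these cells in the differences of the 6 genes was not tested.

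Between hCD4+ and hCD4- pre-pro-B cells, Igll1 alone was called among the 6 genes, where 17.0% of all genes were called and 8.78% were higher. Its difference of 1.99 (SE 0.29, adjusted p = 0.00322, limma) lies between signals of which 1 of 4 was well above background. With levels under each array's detection limit set to that limit the difference was -0.18 (adjusted p = 0.67), so the data do not resolve an Igll1 level in these groups. Vpreb1 differed by 0.49 (adjusted p = 0.152), Vpreb2 by -0.12 (0.855), Vpreb3 by 0.04 (0.972), Cd79a by -0.65 (0.151) and Cd79b by -0.40 (0.0581). Of these 5, only Cd79b had groups that do not overlap, lower in hCD4+ cells, and it was called in 6 of 26 alternatives. Of the GMP markers 5 of 9 were higher in hCD4+ pre-pro-B cells, with sums of 6.85 and 6.97 against 6.29 and 6.90. That count was 3 without hCD4- pre-pro-B replicate 2 and 2 without hCD4+ pre-pro-B replicate 2. Of the 6 late neutrophil markers 2 were lower (sums of -1.71 to -1.68 against -0.26 to 1.45), but 0 without hCD4+ pre-pro-B replicate 2 and 1 without any other pre-pro-B array, either hCD4- pro-B array or either pre-B array. Igj fell by 5.48 (adjusted p = 0.00361, limma), from 1.51 and 2.40 on the hCD4- arrays to -3.64 and -3.42 on the hCD4+ arrays. Their part was not tested.

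The hCD4 difference in pro-B cells was set against that in pre-pro-B cells by an interaction term, which called 23.0% of all genes, 10.0% negative. Igll1 was again the only call (-2.51, SE 0.41, adjusted p = 0.00504, limma), and with signals at the detection limit it was -0.34 (adjusted p = 0.55). The interaction was -0.92 for Vpreb1 (adjusted p = 0.062), -0.40 for Vpreb2, -0.78 for Vpreb3, 0.18 for Cd79a and -0.20 for Cd79b. Vpreb1 was called, negative, in 8 of 26 alternatives.

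The GMP arrays give the level of each gene in cells outside the B lineage. From GMP to hCD4- pre-pro-B cells, on 1 slide, 3 of the 6 genes rose and 1 was called lower, where 65.5% of all genes were called, 30.8% higher and 34.7% lower. Cd79a rose by 2.30 (SE 0.28, adjusted p = 0.000135, limma) and by 1.57 on its dimmer probe (adjusted p = 0.0324), which was above background on 1 of these 4 arrays. The brighter probe's value was 1.13 with normexp and quantile normalization and 0.80 in the authors' deposited table, and was called in both. Cd79b rose by 1.03 (SE 0.12, adjusted p = 0.000118), a 2.04-fold difference. Vpreb3 was at least 5.17-fold higher (adjusted p = 0.00432), with a change of 3.65 without hCD4- pre-pro-B replicate 1 and 1.98 without replicate 2. That bound holds for this scaling alone: the Vpreb3 change was 0.98 with normexp and quantile normalization and 1.10 in the authors' deposited table, called in both. Igll1 was called lower (-1.81, adjusted p = 0.000666) on signals mostly not above background, and was 0.32 (adjusted p = 0.318) at the detection limit. Vpreb1 (-0.11) and Vpreb2 (0.63) were not called, though leaving out hCD4- pre-pro-B replicate 1 brought Vpreb2 to 1.22 (adjusted p = 0.00663). In the same comparison all 8 plasmacytoid and all 4 kept classical dendritic markers were higher, as were 6 of 7 kept mature B and plasma cell markers and 3 of 5 kept T cell markers, and 8 of 9 GMP markers were lower. All 5 kept pre-B markers were higher too (2 to 4 over the other scalings), and of the 8 pro-B markers 3 were higher and 1 lower. The part of these cells in the differences was not tested.

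In hCD4+ pre-pro-B cells the same 3 genes were higher than in GMP, where 54.1% of all genes were called and 22.8% were higher. Vpreb3 was at least 5.31-fold higher, Cd79a rose by 1.66 (adjusted p = 0.00126, limma) and Cd79b by 0.63 (adjusted p = 0.00277). The Vpreb3 bound again holds for this scaling alone. In the authors' deposited table Vpreb3 lay at 6.4 and 6.3 in GMP and at 6.9 and 8 in hCD4+ pre-pro-B arrays, a smaller difference than the bound. The dimmer Cd79a probe gave -0.00 there, with no array above background in either group. Here too all 8 plasmacytoid and all 4 kept classical dendritic markers were higher and 8 of 9 GMP markers lower. Of the 5 kept pre-B markers 4 were higher, and of the 8 pro-B markers 4 were higher and 1 lower. The part of these cells was not tested. Both comparisons use the same GMP arrays. All 6 genes were higher than in GMP in each of the 3 later groups (the share of all genes called was 45.2% with 23.0% higher in hCD4- pro-B, 45.0% with 24.4% higher in hCD4+ pro-B, and 65.0% with 34.4% higher in pre-B). For Vpreb3, dark in GMP, the bounds on this scaling were at least 6150-fold in hCD4- pro-B, 3690-fold in hCD4+ pro-B and 6870-fold in pre-B cells. The deposited table gave a smaller difference for Vpreb3, with 6.4 and 6.3 in GMP against 16.9 and 17 in hCD4- pro-B arrays.

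The patterns over the 12 arrays were compared as a description, since the arrays share groups and most of the variation lies between earlier and later stages. Vpreb1 and Vpreb2 correlated at 0.997, where the Vpreb2 probe may also read Vpreb1 RNA, and Vpreb1 and Igll1 at 0.994. Vpreb3 correlated best with Cd79a, at 0.997, above its 0.973 with Vpreb1 and 0.952 with Igll1. Cd79b was nearest to Cd79a (0.978) and farthest from Igll1 (0.892). The correlations thus set Vpreb3 beside Cd79a, and Vpreb1 and Vpreb2 beside Igll1. Between 84 and 104 of 11428 named genes compared correlated above 0.95 with any 1 member.

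Among those genes the nearest to Vpreb1 were Gfra2 (r = 0.9976), Scn4b (0.9953) and Alpl (0.9952), and to Vpreb2 Gfra2 (0.9974), Alpl (0.9943) and Hes1 (0.9940). Gfra2, which encodes a receptor of the GDNF family, lay at a mean level of 5.30 in hCD4- pro-B, 5.21 in hCD4+ pro-B and 2.83 in pre-B, and between -6.79 and -6.33 in the earlier groups. Those earlier means lie under -4.91, the lowest detection limit of any array, as do those of Scn4b, Alpl, Hes1 and Fgf13. Differences among the earlier groups are therefore not resolved for these genes. Nearest to Igll1 were Zfp280b (0.9901), Gfra2 (0.9871) and Scn4b (0.9865). Zfp280b is also the second coding gene after Vpreb3 in RefSeq order, and its level moved only from -1.25 in hCD4- pre-pro-B to 0.05 in hCD4- pro-B. Nearest to Vpreb3 were Rsph9 (0.9960), Pou2af1 (0.9956) and Fgf13 (0.9939), and to Cd79a Pou2af1 (0.9976), Ltbp4 (0.9928) and Rsph9 (0.9915). Nearest to Cd79b were Cecr2 (0.9928), Rag1 (0.9896) and Lrmp (0.9877), of which Rag1 encodes a recombinase of antibody genes.

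Regulators of the B lineage were taken from a list of 19 names, of which 17 genes were kept and the other 2 are second names of Tcf3 and Sfpi1. From hCD4- pre-pro-B to hCD4- pro-B 10 of the 17 rose and 2 fell, where 59.7% of all genes were called and 32.7% rose. Ebf1 was at least 308-fold higher and Pax5 at least 11.4-fold, since neither was above background on any pre-pro-B array. Pou2af1, a coactivator of octamer-binding factors, rose by 9.07, from -3.25 to 5.82 in mean level. Tcf3, which encodes E2A, rose by 2.17, Foxo1 by 1.76 and Irf4 by 2.96, while Ikzf1 (-0.19) and Ikzf3 (0.11) were not called. The 2 that fell were Irf8 (-4.55) and Spib (-1.77).

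From hCD4- pro-B to pre-B, where the surrogate light chain genes fell, 7 of the 17 regulators rose and none fell. The share called is near the 41.1% of all genes called there, of which 19.7% were higher and 21.4% lower. Ikzf3, which encodes Aiolos, rose by 2.54 (SE 0.31, adjusted p = 0.000547, limma), Irf4 by 1.66 (SE 0.16, adjusted p = 0.000188) and Ikzf1, which encodes Ikaros, by 0.88 (SE 0.13, adjusted p = 0.00119). Ebf1 (0.06), Pax5 (0.37), Tcf3 (0.40), Foxo1 (0.22) and Pou2af1 (0.69) did not pass. IRF4, Aiolos and Ikaros are known as factors that act on light chain and surrogate light chain genes at this stage. Their part in the fall was not tested. Against hCD4+ pro-B arrays, on the same slide, 11 regulators rose and 1 fell (42.9% of all genes called, 18.8% higher), with Irf4 at 2.90, Ikzf3 at 2.03 and Ikzf1 at 1.40. Over the other scalings the first count ran from 5 to 12 higher, and leaving out pre-B replicate 1 gave 5.

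Between hCD4+ and hCD4- pro-B cells 9 of 17 regulators were lower and 1, Irf8, higher, where 20.5% of all genes were called and 8.86% were lower. Irf4 fell by 1.23, Ikzf1 by 0.52, Foxo1 by 0.60 and Tcf3 by 0.67, while Ebf1 (-0.56), Pax5 (-0.60) and Pou2af1 (-0.77) were not called. The count of 9 fell to 2 without either hCD4- pro-B array and to 3 without either hCD4+ pro-B array. Its range over the other scalings was 7 to 12. Between hCD4+ and hCD4- pre-pro-B cells, where 17.0% of all genes were called, 1 regulator was called, Irf8 (-0.53).

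**Figure D5:**
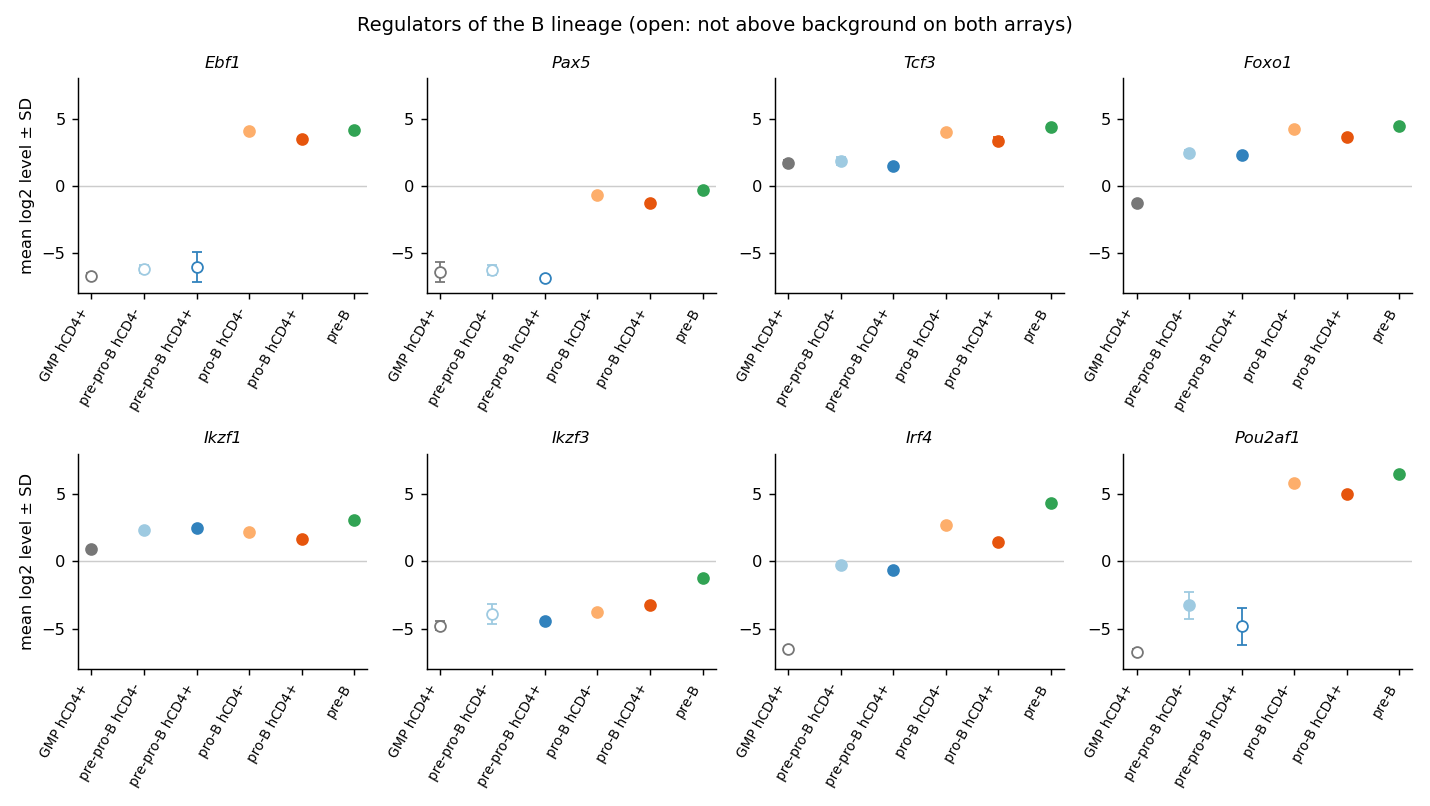
Mean log2 level with SD (n = 2) of 8 regulators in the 6 groups, relative to the 75th percentile of the array; open points were not well above background on both arrays. Ebf1 and Pax5 are open in all 3 earlier groups and filled in the 3 later ones, and Irf4, Ikzf1 and Ikzf3 are highest in pre-B arrays.

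Signalling proteins that act below the pre-B receptor were taken from a list of 20, of which 19 were kept and Syk was not found under that name. They did not move as a block with the 6 genes. From hCD4- pre-pro-B to hCD4- pro-B 7 rose and 7 fell, with a median of 0.07, where 59.7% of all genes were called. Zap70, a kinase that binds phosphorylated signalling motifs, rose by 3.89, while Fyn, a kinase of the Src family, fell by 2.88. Blnk, the adaptor of the receptor, already lay at 6.15 in hCD4- pre-pro-B arrays and rose by 1.19. From hCD4- pro-B to pre-B 5 rose and 4 fell, a share near the 41.1% of all genes called, with Lyn (1.62), Blk (1.60) and Cd72 (1.45) up and Zap70 (-1.37) down. Those counts ran over 3 to 7 higher and 3 to 7 lower with the other scalings. The 5 became 3 without hCD4- pro-B replicate 1 or either pre-B array, and the 4 became 2 without hCD4- pro-B replicate 2. Between hCD4+ and hCD4- pro-B cells 5 were lower and 1 higher (20.5% of all genes called, 8.86% lower), with Cd72 at -1.48, Zap70 at -1.31 and Prkcb at -0.93. That count of 5 was 3 without hCD4- pro-B replicate 1 and 2 without hCD4- pro-B replicate 2 or either hCD4+ pro-B array.

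Most of the other adaptors listed here carry the same kind of signalling motif as Cd79a and Cd79b. Of 6 kept from a list of 7, 3 fell, 1 rose and 2 were not called from hCD4- pre-pro-B to hCD4- pro-B, where 59.7% of all genes were called. Tyrobp fell by 7.17 and Fcer1g, the common chain of Fc receptors, by 6.70, while Cd3d, above background on no hCD4- pre-pro-B array, was at least 1.56-fold higher. In hCD4+ pro-B cells Fcer1g (3.44) and Tyrobp (3.42) were higher than in hCD4- pro-B cells and Cd3d was at least 2.26-fold lower.

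Of 10 names of antibody chains 2 were kept. Igk-C, the constant region of the kappa light chain, was above background on both pre-B arrays and on no other array, and was at least 3.87-fold higher in pre-B than in hCD4- pro-B cells (adjusted p = 6.86e-05, limma). The surrogate light chain genes fell in that same comparison. Igh-VJ558, a heavy chain segment, lay at 5.31 and 6.67 on the hCD4- pre-pro-B arrays and 6.11 and 6.21 on the hCD4- pro-B arrays, and at 0.68 or below on every other array. The hCD4+ pro-B arrays lay far apart, at -5.25 and 0.68 with 1 of the 2 above background, and were called lower than the hCD4- pro-B arrays (adjusted p = 0.00887, limma). Of the 2 kept chains 2 were called lower there, and 1 without either hCD4- pro-B array or without hCD4+ pro-B replicate 1. Igh-VJ558 fell by 9.91 (adjusted p = 0.00514) from hCD4- to hCD4+ pre-pro-B cells. The hCD4- arrays that are high for Igh-VJ558 are the ones that are high for Igj, and the part of antibody-secreting cells in the levels of Cd79a and Cd79b was not tested.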

How the data were processed

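RNA of 12 sorted marrow samples was hybridised to one-colour arrays. The deposited files hold scanner intensity per spot from Agilent Feature Extraction 10.7.3.1 (protocol GE1_107_Sep09), background-subtracted by that software per the file headers. The authors also deposited a table of log2 values whose normalization is not given in the sources used here. Its columns have a median of 6.50 and correlated at 0.940 to 0.954 with the scanner levels, and it served as an alternative.

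Control spots were left out and 2469 outlier spot values set missing; no spot was saturated. Spots of a probe were averaged as log2 of the processed signal minus the 75th percentile of the array. A probe was kept if some group had both its arrays well above background for it, and a gene was read from its kept probe of highest mean (3907 of 18556 kept genes had several). One limma model (limma 3.58.1, R 4.3.3) covered the 12 arrays, with 6 residual and 2.15 prior degrees of freedom, tested on simulated data. P-values were adjusted by Benjamini-Hochberg over all 18556 genes and called under 0.05. Having 2 arrays a group limits the precision. Motifs were searched with Python 3.11.15. Same-numbered replicates deviated together at -0.01 to 0.26 over 15 pairs of groups, 10 of them over 0.1. The main model did not pair samples by number, since not every pair of groups was over 0.1, there are only 2 numbers, and no label ties a number to a mouse. A fit with replicate number as a block was an alternative.

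The members and lists were chosen with earlier results of these data known. Named were the 6 members, 8 regulators, at most 4 called genes with the largest change per other list and comparison, and the 3 genes most alike each member. Irf8, Spib, Blnk, Cebpa, Csf3r and the genes of marker checks beyond that rule were named after their values were seen. Some listed genes are not reported here by name. Alternatives were other normalizations, filters, probe rules, model settings, a slide term, a replicate block and leaving out each array.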

Additional observations from a re-analysis of the deposited data

Results flagged for a closer look

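The difference between the hCD4 contrast in pro-B cells and that in pre-pro-B cells passed the test for Igll1, the gene of lambda5, at -2.51 on the log2 scale (SE 0.41, adjusted p = 0.00504, limma). Igll1 was 1.99 higher in hCD4+ than in hCD4- pre-pro-B cells and differed by -0.51 between hCD4+ and hCD4- pro-B cells. The processed signals behind the first value were 25.4 and 49.7 on the hCD4+ arrays against 3.7 and 3.57 on the hCD4- arrays, with 1 of the 4 well above background. Over 25 alternatives the difference ran from -3.18 to -0.34 and was called in 24, the exception being levels set to the detection limit (-0.34, adjusted p = 0.55).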

How the results depend on the processing

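Over 27 alternatives, 1329 member changes kept direction and side of the threshold, 39 passed it anew, 5 lost it and 22 turned sign; no rise into pro-B cells and no fall of Vpreb1, Vpreb2 or Igll1 into pre-B cells was among the lost or turned. Counts of called members that moved by over 1.5 times were as follows. The share of all genes called is given in this report for the main fit alone, so these counts stand without one. Between the pre-pro-B groups 2 were called with normexp and quantile, quantile, array-median scaling, cyclic loess, the authors' table and trend with robust fitting, and 0 at the detection limit or with only the arrays compared. Between the pro-B groups 4 were called with normexp and quantile and with the authors' table, and 2 with array-median scaling and with only the arrays compared. For the difference of both contrasts 2 were called with normexp and quantile, quantile, the authors' table and trend with robust fitting, 3 with array-median scaling and 0 at the detection limit. A filter on all 12 arrays left 3 members to test: 3 were called in each comparison into pro-B cells, 2 in each into pre-B cells, 2 from GMP to hCD4- pre-pro-B, and 9 steps in the orders of groups. Within 1.5 times, the 4 from hCD4+ pro-B to pre-B were 6 with normexp and quantile, the authors' table and only the arrays compared (adding Vpreb3 and Cd79a) and 5 with quantile, array-median scaling, array weights and trend with robust fitting (adding Cd79a). From GMP to hCD4- pre-pro-B array-median scaling added Vpreb1 (adjusted p = 0.0353, limma), and the detection limit ended the call of Igll1 (0.318).

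Leaving out 1 array gave counts of 1 to 2 between the pre-pro-B groups, 0 to 1 between the pro-B groups, 6 to 6 in each comparison into pro-B, 4 to 4 from hCD4- pro-B to pre-B, 4 to 5 from hCD4+ pro-B to pre-B, 4 to 5 from GMP to hCD4- pre-pro-B, 1 to 2 for the difference of contrasts and 14 to 17 steps in the orders.

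Values that turned sign, causes not tested, were these. Between the pre-pro-B groups, Vpreb2 was 0.02 with normexp and quantile, 0.15 with quantile and with the authors' table, 0.19 with array-median scaling, 0.48 without hCD4- pre-pro-B replicate 2 and 0.18 without hCD4+ pre-pro-B replicate 1. Vpreb3 there was -0.79 without hCD4- pre-pro-B replicate 1 and -0.90 without hCD4+ pre-pro-B replicate 2, and Igll1 was -0.18 at the detection limit. From GMP to hCD4- pre-pro-B, Vpreb1 was 0.27 with cyclic loess and 0.15 without hCD4- pre-pro-B replicate 1, and Igll1 was 0.32 at the detection limit. Vpreb3 from hCD4- pro-B to pre-B was -0.02 with array-median scaling. The difference of contrasts for Cd79a was -0.18 with normexp and quantile, -0.01 with quantile, -0.35 with array-median scaling, -0.19 without hCD4- pre-pro-B replicate 2, -0.15 without hCD4+ pre-pro-B replicate 1 and -0.00 without hCD4+ pro-B replicate 1. For Vpreb2 it was 0.20 and for Vpreb3 0.05 without hCD4- pre-pro-B replicate 1, and for Vpreb3 0.16 without hCD4+ pre-pro-B replicate 2. Array-median scaling moved the median of all genes by 0.24 between the pre-pro-B groups.

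Over the fits without 1 array, Vpreb2 between the pre-pro-B groups ran from -0.71 to 0.48, Vpreb3 there from -0.90 to 0.98, Vpreb1 from GMP to hCD4- pre-pro-B from -0.36 to 0.15, and the difference of contrasts from -0.99 to 0.20 for Vpreb2, -1.72 to 0.16 for Vpreb3 and -0.19 to 0.55 for Cd79a.

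With replicate number as a block no member call changed: Cd79b between the pro-B groups was -0.60 (adjusted p = 0.0172, limma). Signal near background limits Igll1, Vpreb2 and Vpreb3 in GMP and pre-pro-B cells.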
